A study of Mus musculus with 10 samples.

Results

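Amino acid transporters of the SLC (solute carrier) families were followed across normal mouse liver and liver tumors. Members were all genes whose symbol begins with Slc1a, Slc3a, Slc6a, Slc7a, Slc36a, Slc38a or Slc43a and a number. The rule found 47 of the 16697 genes with a symbol in the table. One of these, Slc7a6os, lies beside Slc7a6 on the opposite strand and is not itself a carrier, which left 46 carriers or carrier subunits. A gene was tested when its level reached 1 FPKM (sequenced fragments scaled to gene length and library size) in at least 3 libraries. Of the 47 members, 38 were tested, among 14017 genes in all. The rule used symbols only, and no measured value.

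RNA-Seq was performed on whole liver tissue of 3 groups. Normal liver (NL, n = 4) came from wild-type mice. The c-MYC tumors (n = 3) were made by injecting c-MYC with the empty pT3-EF1α vector into the tail vein, and the c-MYC/FOXO1AAA tumors (n = 3) by injecting c-MYC with FOXO1AAA, a MYC-tagged form of the transcription factor FOXO1 that AKT cannot inactivate. Both plasmids are driven by the EF1α promoter and are inserted into hepatocyte DNA by the Sleeping Beauty transposase, so the tumor tissue can also hold cells without the transgenes. The sources conflict on 2 points. The strain field gives C57BL/6 for every sample, whereas the RNA extraction text and the study's methods name FVB or FVB/N. MCL1 is part of the c-MYC control injection in a figure legend of the study but not in its injection list or in the labels. Both sexes were used in the study, and the age and sex of single mice are not given in the sources used here. Nothing states that the libraries of a group are from separate litters or days, so p-values measure the spread between these samples.

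SLC carriers move amino acids across the plasma membrane, the lysosomal membrane and the mitochondrial membrane. Some use the sodium or proton gradient to concentrate amino acids, and others exchange one amino acid for another. Members of SLC7 that exchange neutral or cationic amino acids need a heavy chain of SLC3 to reach the surface. Normal hepatocytes take up glutamine, alanine and arginine from portal blood for urea and glucose synthesis, while proliferating cells import amino acids for protein, nucleotide and glutathione synthesis. MYC is known to raise glutamine uptake and use in many cell types.

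The libraries held 13.12 to 20.55 M reads in genes. Hepatocyte markers were far lower in the tumors. The summed level of all 6 markers ranged from 74802 to 83334 FPKM in NL. It was 3206 to 5083 FPKM in c-MYC and 817 to 1467 FPKM in c-MYC/FOXO1AAA. All 6 (Alb, Apoa1, Ttr, Serpina1c, Tat, Cps1) were called lower in c-MYC than in NL, beside 23.6% of all tested genes. In c-MYC/FOXO1AAA against c-MYC, 4 were called lower and Tat higher (0.897 to 4.42 FPKM), beside 12.7% and 15.9% of all tested genes. Alb was not called in that contrast. In bulk tissue, fewer cells of a type and less RNA per cell cannot be told apart. The 5 stellate cell and fibroblast markers (Lrat, Dcn, Col1a1, Col3a1, Reln) summed to 78.6 to 99.9 FPKM in NL, 8.48 to 30 FPKM in c-MYC and 282 to 382 FPKM in c-MYC/FOXO1AAA. Most of the last sum was Dcn, with a mean of 236 FPKM. Against c-MYC, 3 of 5 (Dcn, Col3a1 and Reln) were called higher there and 0 lower, beside 15.9% and 12.7% of all tested genes. Against NL, 3 were called higher and 1 lower, beside 31.2% and 26.6%. The lower marker was Lrat (3.83 to 0.255 FPKM, log2 fold change -3.93, limma adjusted p = 9.3e-05). Of the 5 endothelial markers, 4 were tested. Between the tumors, 1 (Cdh5) was called higher (background 15.9%). Pecam1, Stab2 and Kdr had log2 fold changes of -0.71, -0.72 and -0.9 there and were not called. In c-MYC/FOXO1AAA against NL, Cdh5 was called higher and Stab2 and Kdr lower (background 31.2% and 26.6%). In these 3 lists no marker was at 3 reads or fewer in all libraries of a group. Periportal markers, 5 of 5, and erythroid markers, 3 of 3, were called lower in c-MYC against NL (background 23.6%). Between the tumors, 2 periportal markers (Cyp2f2 and Pck1) were called higher and 3 lower (background 15.9% and 12.7%). Of the 5 pericentral markers, 2 (Cyp2e1 and Cyp1a2) were called higher between the tumors and 0 lower. Of the 6 Kupffer cell and macrophage markers, 2 were called lower in c-MYC against NL (Clec4f and Vsig4, background 23.6%). In the same contrast 1 was called higher (Cd68, 6.93 to 34.4 FPKM, log2 fold change 2.34, limma adjusted p = 4.27e-05, background 24.5%). Between the tumors, Clec4f was called higher (4.47 to 17.9 FPKM, background 15.9%) and Cd5l lower (64.2 to 10.7 FPKM, background 12.7%). Cholangiocyte markers summed to 17.3 to 37.8 FPKM over all libraries, with calls in both directions. Krt7 and Epcam were called higher and Spp1 lower in c-MYC against NL, and Krt19 and Spp1 higher and Epcam lower in c-MYC/FOXO1AAA against c-MYC. The B cell markers reached 7.49 to 12.1 FPKM in c-MYC/FOXO1AAA against at most 1.93 FPKM in the other groups, and T cell markers were below the filter. The neutrophil markers had no call, but summed to 15.3 FPKM in c-MYC/FOXO1AAA 3 and to 0.798 and 0.723 FPKM in the other libraries of that group. The part of the changing cell mixture in the results was not tested.

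Single libraries stood apart for some of the carriers. Called here means past limma's treat test against a 1.5-fold change at a Benjamini-Hochberg adjusted p under 0.05. Among the 13 of 38 members called higher in c-MYC than in NL (24.5% of all tested genes were), NL 1 had the highest of the NL levels for 11. Among the 10 of 38 called below c-MYC in the c-MYC/FOXO1AAA tumors (12.7% of all tested genes were), c-MYC/FOXO1AAA 3 had the highest of the c-MYC/FOXO1AAA levels for 8. Calls without 1 library were followed gene by gene for 11 of these 13 and 9 of these 10. All 11 kept their call without NL 1, and all 9 did without c-MYC/FOXO1AAA 3.

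The promoters of the 3 tested carriers that were called higher with FOXO1AAA than in both other groups are shown here. That of Slc7a11, the cystine carrier, a candidate gene of the study that was not tested here, follows. Each is the 250 bases before the transcription start, 5′ to 3′ on the strand of the gene, from RefSeq on GRCm38.p6 (for Slc43a2, the first of 2 starts). Capitals mark matches, on either strand, to 3 motifs. These are the E-box CACGTG, which MYC and related factors bind, the amino acid response element TGATGNAA, which ATF4 and its partners bind, and the FOXO site GTAAACA. No matches overlapped.
Slc38a5 (chrX:8271131-8271380, plus strand): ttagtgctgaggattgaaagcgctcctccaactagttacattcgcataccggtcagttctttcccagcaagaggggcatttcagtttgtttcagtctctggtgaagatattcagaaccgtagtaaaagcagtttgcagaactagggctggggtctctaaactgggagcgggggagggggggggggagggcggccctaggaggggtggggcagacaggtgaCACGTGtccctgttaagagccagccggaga
Slc1a4 (chr11:20332714-20332963, minus strand): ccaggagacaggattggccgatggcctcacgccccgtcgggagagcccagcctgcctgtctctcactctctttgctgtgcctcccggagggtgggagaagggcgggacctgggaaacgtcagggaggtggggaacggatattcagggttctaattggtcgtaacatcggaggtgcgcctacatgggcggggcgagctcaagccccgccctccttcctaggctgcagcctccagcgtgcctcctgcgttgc
Slc43a2 (chr11:75531444-75531693, plus strand): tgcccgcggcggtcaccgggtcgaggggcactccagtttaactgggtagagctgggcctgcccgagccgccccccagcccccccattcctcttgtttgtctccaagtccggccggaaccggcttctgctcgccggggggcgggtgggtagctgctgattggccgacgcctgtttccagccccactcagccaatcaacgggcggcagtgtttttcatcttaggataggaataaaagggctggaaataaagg
Slc7a11 (chr3:50443614-50443863, minus strand): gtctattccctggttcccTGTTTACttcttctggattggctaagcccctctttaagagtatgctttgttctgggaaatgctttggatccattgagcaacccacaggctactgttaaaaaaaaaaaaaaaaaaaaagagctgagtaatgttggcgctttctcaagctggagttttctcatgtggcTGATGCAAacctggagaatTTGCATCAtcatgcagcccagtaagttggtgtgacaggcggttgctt

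The Slc38a5 window held an E-box 30 bases before the RefSeq start, and the Slc1a4 and Slc43a2 windows held none of the 3 motifs. The GENCODE start of Slc38a5 (chrX:8271133) lies near the first base of its window. By that annotation nearly the whole window, the E-box included, is inside the gene and not before it. The Slc7a11 window held 2 amino acid response elements, 66 and 47 bases before the start, and a FOXO site 232 bases before it. Of the 47 members, 34 had a RefSeq promoter, with 52 starts in all. The E-box was in 9.62% of these 52 and in 6.02% of all 32851 promoters of the same length. The amino acid response element was in 5.77% against 3.45%, and the FOXO site in 1.92% against 3.17%. These shares describe the letters in the window and not binding.

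Transcript levels of the carriers were first set side by side. The lengths behind the deposited FPKM were those of a single annotated transcript for 46 of the 47 members (not for Slc6a7), and for 12 of the 47 members that length was 2.06 to 7.65 times shorter than the longest coding transcript in the annotation. Fold changes are not touched by this, but levels between genes are. Levels between genes are therefore given per kilobase of the longest coding transcript, here called FPKM at coding length. The filter of 1 FPKM was applied on the deposited lengths. Slc6a19 passed it with a mean of 3.94 FPKM in c-MYC, its highest group, which is 0.607 FPKM at coding length.

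Normal liver was dominated by 2 carriers of the SLC38 family. Slc38a3 (chr9:107650634-107669530), a sodium-coupled glutamine carrier of system N, had 1107 ± 75.7 FPKM at coding length (SD, n = 4). Slc38a4 (chr15:96994820-97055956), a system A carrier of small neutral amino acids, had 395 ± 22.2 FPKM. Together they took 74.5% to 75.9% of the summed carrier level in the 4 NL libraries. Slc6a13, a GABA and taurine carrier, followed with 135 ± 9.9 FPKM, and then Slc7a2, a cationic amino acid carrier, with 78.5 ± 11.3 FPKM and Slc6a12, the betaine carrier, with 60.1 ± 5.26 FPKM.

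In c-MYC tumors the share of Slc38a3 and Slc38a4 was 15.1% to 20%, and the levels were more even. Slc38a3 was still the first of the carriers with 68.7 ± 15.1 FPKM at coding length (SD, n = 3), but Slc38a10 with 49.6 ± 3.44 FPKM, Slc6a13 with 49.2 ± 9.49 FPKM and Slc3a2 with 44.6 ± 2.16 FPKM followed. Slc6a13 overlapped with both of its neighbors in this order, while Slc38a10 (46.5 to 53.3 FPKM) and Slc3a2 (42.2 to 46.4 FPKM) did not overlap. In c-MYC/FOXO1AAA tumors that share was 7.46% to 10.6%. Slc38a5 led with 51.1 ± 13.4 FPKM, next to Slc7a5, a carrier of large neutral amino acids, with 50.5 ± 11.1 FPKM and its heavy chain Slc3a2 with 45.9 ± 5.7 FPKM, and these 3 did not differ beyond their spread. The summed level of the 46 carriers was 1989 ± 107 FPKM in NL, 568 ± 57.0 FPKM in c-MYC and 457 ± 44.6 FPKM in c-MYC/FOXO1AAA. Without Slc38a3 and Slc38a4 the sums were 488 ± 15.3, 469 ± 32.7 and 416 ± 45.8 FPKM. These sums depend on how the libraries were scaled. The FPKM of all genes totaled at least 1062117 in each NL library and at most 586687 in each tumor library. On the lengths of the deposited values, the 46 carriers took 0.271% of that total in NL, 0.151% in c-MYC and 0.141% in c-MYC/FOXO1AAA.

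**Figure D1:**
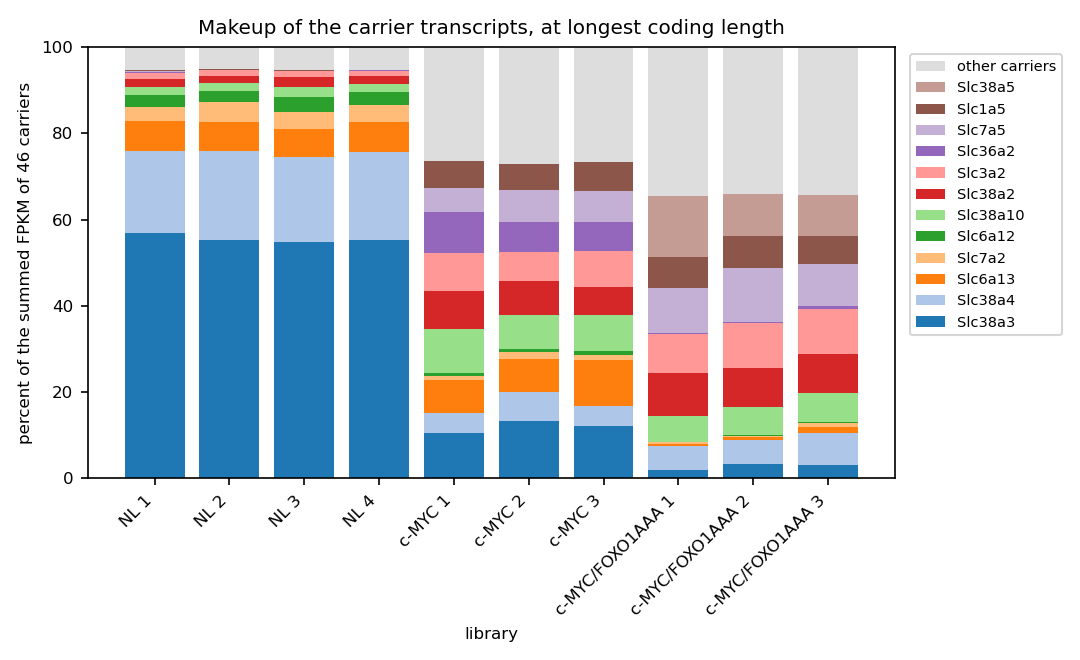
Makeup of the carrier transcripts in each library. The horizontal axis shows the 10 libraries by group, and the vertical axis shows each carrier's percent of the summed FPKM at coding length of 46 carriers. Slc38a3 and Slc38a4 take 74.5% to 75.9% in NL, 15.1% to 20% in c-MYC and 7.46% to 10.6% in c-MYC/FOXO1AAA, and Slc38a5 is visible only in the last group.

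The number of carriers that changed was then counted for each contrast. A gene was called when limma's treat test against a 1.5-fold change gave a Benjamini-Hochberg adjusted p under 0.05 over all 14017 genes. In c-MYC against NL, 13 of the 38 tested members were called higher (34.2%) and 10 lower (26.3%), beside 24.5% and 23.6% of all tested genes. In c-MYC/FOXO1AAA against c-MYC, 5 were called higher (13.2%) and 10 lower (26.3%), beside 15.9% and 12.7%. In c-MYC/FOXO1AAA against NL, 12 were called higher (31.6%) and 9 lower (23.7%), beside 31.2% and 26.6%. The share of members called in either direction was thus 60.5%, 39.5% and 55.3%, beside 48.1%, 28.7% and 57.8% of all genes. The libraries of the 2 groups did not overlap for 32, 26 and 27 of the 38 members, beside 73.9%, 63.4% and 80.1% of all genes. By direction, groups without overlap made up 39% (higher) and 34.9% (lower) of all genes in the first contrast, 32.7% and 30.7% in the second and 44.1% and 36% in the third. The filter bears on these counts. Called higher in c-MYC, Slc1a1, Slc6a19, Slc7a1, Slc7a3, Slc7a6, Slc7a9 and Slc38a1 were below 1 FPKM in every NL library. They were tested only because of their tumor levels. Slc1a2 and Slc6a16, called lower, were below 1 FPKM in every tumor library and were tested through NL alone. Between the tumors, Slc38a5 was below 1 FPKM in every c-MYC library, and Slc6a19 and Slc7a9 in every c-MYC/FOXO1AAA library.

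The absolute log2 fold change of the tested members had a median of 2.55 in c-MYC against NL, beside 0.98 over all genes, and it was 0.83 beside 0.59 in c-MYC/FOXO1AAA against c-MYC. The signed medians were 0.38 and -0.08, beside 0.08 and 0.03 over all genes. The filter bears on these medians in the same way. When libraries were rescaled to the same FPKM total, the median of all genes moved from 0.083 to 1.012 in c-MYC against NL, from 0.026 to 0.197 in c-MYC/FOXO1AAA against c-MYC and from 0.213 to 1.313 in c-MYC/FOXO1AAA against NL. Under that scaling 21 members were called higher and 8 lower in c-MYC against NL, and 19 higher and 9 lower in c-MYC/FOXO1AAA against NL. Among the 27 members followed gene by gene under the alternatives, no called log2 fold change changed its sign.

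**Figure D2:**
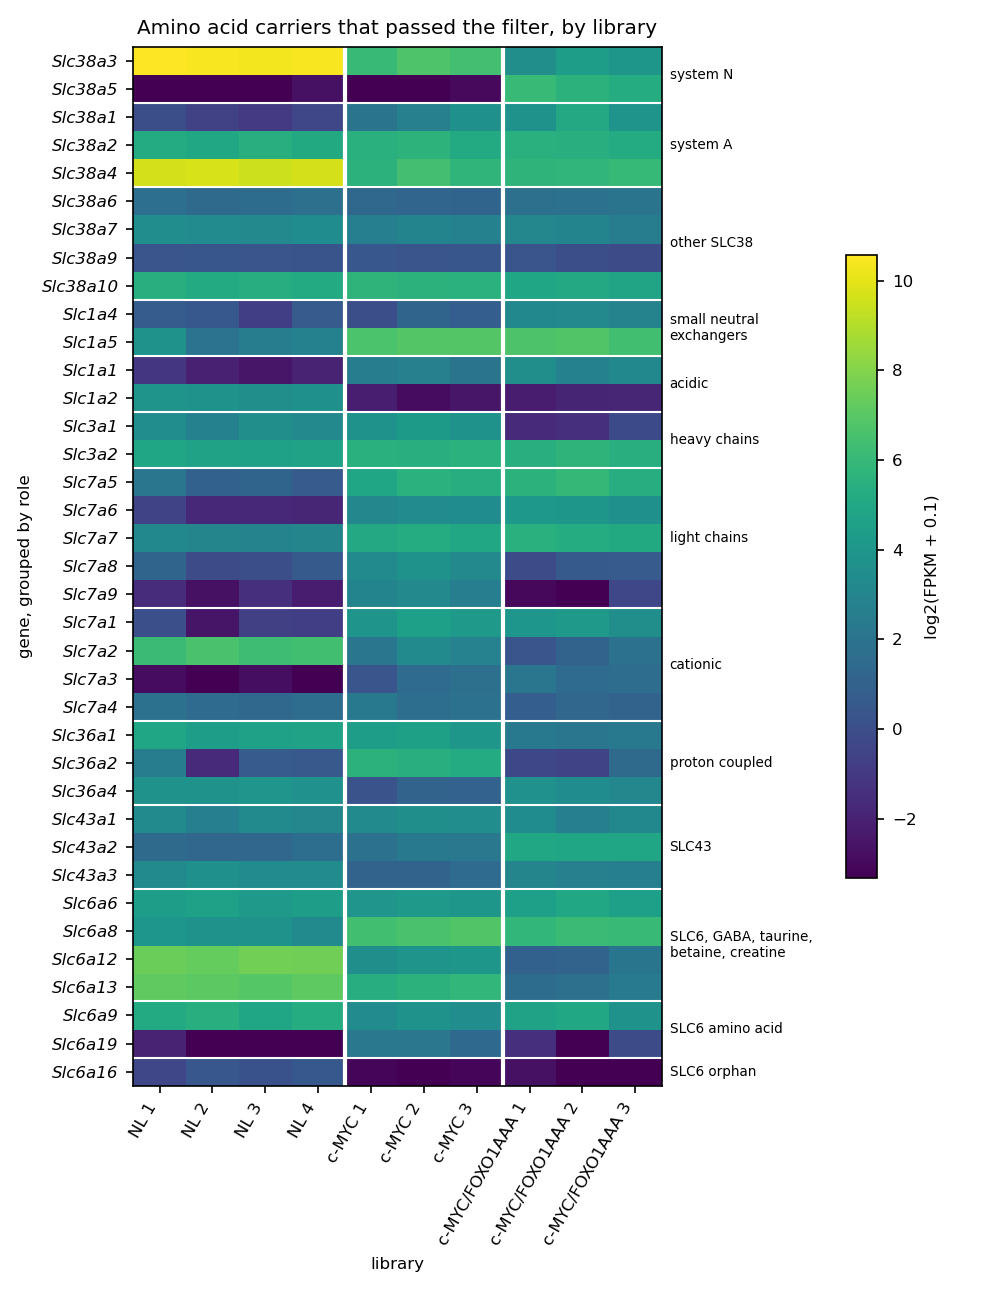
Levels of the 37 tested carriers in every library. Columns are the 10 libraries, rows are genes grouped by role, and color gives log2(FPKM + 0.1) on the lengths of the deposited values. Slc38a3 and Slc38a4 are brightest in NL, and Slc38a5 is at or near the lowest color in NL and c-MYC and bright in all 3 c-MYC/FOXO1AAA libraries.

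System N carriers, which move glutamine, histidine and asparagine, showed the widest range. FPKM values from here on are on the lengths of the deposited values and are compared between groups within a gene. Slc38a3 had 1533, 1420, 1296 and 1414 FPKM in the NL libraries, 68.7, 107 and 87.5 FPKM in c-MYC and 11.8, 20.9 and 16.5 FPKM in c-MYC/FOXO1AAA. None of the 3 groups overlapped. The mean fell 16.1-fold from NL to c-MYC (log2 fold change -4.03 ± 0.19 SE, limma adjusted p = 5.98e-08) and 5.35-fold from c-MYC to c-MYC/FOXO1AAA (-2.43 ± 0.21, adjusted p = 2.18e-05).

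Slc38a5 (chrX:8271133-8280179), the second system N carrier, had the opposite profile. It had 65.7, 48.5 and 39.2 FPKM in c-MYC/FOXO1AAA, from 3210, 2871 and 1526 reads. A single read was found in all 4 NL libraries together (NL 4), and a single read in the 3 c-MYC libraries (c-MYC 3). The gene was thus at the limit of detection in both other groups and was present at a high level in every c-MYC/FOXO1AAA library. The log2 fold change was 9.53 ± 0.36 against c-MYC (limma adjusted p = 3.23e-08) and 9.47 ± 0.34 against NL (adjusted p = 3.31e-09). The ratio of reads per library size was 5702 against c-MYC, with a 95% exact interval of 1023 to 225242 that covers counting error only.

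System A carriers, which take up alanine, serine and glutamine with sodium, diverged. Slc38a4 had 825, 848, 746 and 835 FPKM in NL, 49.7, 85.7 and 53.8 FPKM in c-MYC and 52.5, 56.7 and 62.5 FPKM in c-MYC/FOXO1AAA. It fell 12.9-fold in c-MYC (log2 fold change -3.73 ± 0.17, limma adjusted p = 4.26e-08), and the 2 tumor groups overlapped. Slc38a1 (chr15:96571418-96642913) went the other way, with 0.91, 0.533, 0.418 and 0.665 FPKM in NL, 3.99, 6.65 and 12.5 FPKM in c-MYC and 13.8, 33.4 and 14.4 FPKM in c-MYC/FOXO1AAA. It rose 12.2-fold from NL to c-MYC (3.43 ± 0.43, adjusted p = 0.000118). The further 2.66-fold between the tumor groups was not called (1.43 ± 0.46, adjusted p = 0.14), although the groups did not overlap, and it was called when c-MYC 3 was left out (1.86, adjusted p = 0.0327). Slc38a2, 44479 bases from Slc38a1 on the same strand, was not called in any contrast and had 32.6 to 50.5 FPKM over all 10 libraries.

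The other SLC38 genes were not called in any contrast. Slc38a9, the arginine sensor of the lysosomal membrane, had 1.15, 1.23, 1.16 and 1.14 FPKM in NL, 1.29, 1.19 and 1.23 FPKM in c-MYC and 1.17, 0.921 and 0.847 FPKM in c-MYC/FOXO1AAA. Its log2 fold change was 0.08 ± 0.21 in c-MYC against NL and -0.35 ± 0.22 between the tumors (limma adjusted p = 1 in both). Slc38a6, Slc38a7 and Slc38a10 likewise passed no threshold, with log2 fold changes between -0.59 and 0.37 in c-MYC against NL and between -0.75 and 0.69 between the tumors.

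**Figure D3:**
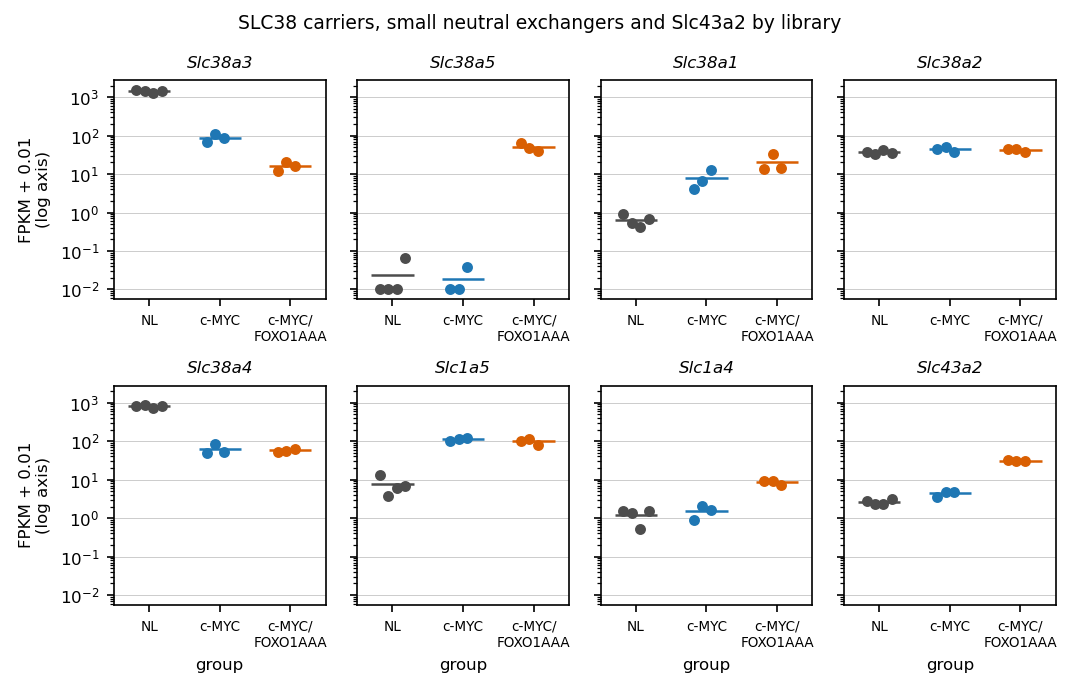
FPKM + 0.01 on a log axis for 5 SLC38 carriers, the 2 small neutral exchangers and Slc43a2. Each point is a library, each line is the mean of a group (NL, n = 4; c-MYC and c-MYC/FOXO1AAA, n = 3), and points at 0.01 have no read. Slc38a3 drops in 2 steps, Slc38a5 is present only in c-MYC/FOXO1AAA at 39.2 to 65.7 FPKM, and Slc38a2 stays between 32.6 and 50.5 FPKM.

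Both small neutral exchangers of SLC1 were high in c-MYC/FOXO1AAA, and Slc1a5 alone was called higher in c-MYC than in NL. Slc1a5 (chr7:16781340-16798274), also called ASCT2, imports glutamine in exchange for other neutral amino acids. It had 13.3, 3.81, 5.87 and 6.89 FPKM in NL, 99.7, 117 and 118 FPKM in c-MYC and 102, 114 and 81.6 FPKM in c-MYC/FOXO1AAA. It rose 15-fold in c-MYC (log2 fold change 4.02 ± 0.33, limma adjusted p = 4.88e-06), and the tumor groups overlapped (-0.18 ± 0.35, adjusted p = 1). Slc1a4, also called ASCT1, exchanges alanine, serine and cysteine. It had 1.54, 1.32, 0.496 and 1.5 FPKM in NL, 0.902, 2.1 and 1.66 FPKM in c-MYC and 9.04, 9.24 and 7.35 FPKM in c-MYC/FOXO1AAA. All 3 of the latter lay above the other libraries, 5.5-fold over c-MYC (2.51 ± 0.43, adjusted p = 0.00275), while NL and c-MYC overlapped.

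The acidic amino acid carriers of SLC1, which take up glutamate and aspartate, moved in opposite directions. Slc1a2, the glutamate carrier of liver and brain also called GLT-1, had 14.5, 13.5, 11.4 and 12.3 FPKM in NL, 0.127, 0.0366 and 0.0798 FPKM in c-MYC and 0.112, 0.17 and 0.185 FPKM in c-MYC/FOXO1AAA. It fell 159-fold in c-MYC (log2 fold change -7.27 ± 0.36, limma adjusted p = 5.01e-08). Slc1a1, which also carries cysteine, had 0.357, 0.14, 0.0809 and 0.147 FPKM in NL, 5.68, 6.51 and 3.94 FPKM in c-MYC and 11.5, 6.83 and 8.79 FPKM in c-MYC/FOXO1AAA. It rose 29.7-fold in c-MYC (4.8 ± 0.39, adjusted p = 2.93e-06). Neither was called between the tumor groups, and Slc1a3 was below the filter at 0 to 0.179 FPKM. In normal liver Slc1a2 is known to mark pericentral hepatocytes beside glutamine synthetase (Glul), and the 5 pericentral markers summed to 8299 to 10746 FPKM in NL, 94.5 to 131 FPKM in c-MYC and 120 to 162 FPKM in c-MYC/FOXO1AAA.

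The heavy chains behaved differently from each other. Slc3a2 (chr19:8706882-8723369), the heavy chain also called CD98, had 28.7, 26.1, 24.8 and 25.4 FPKM in NL, 45.3, 42.2 and 46.4 FPKM in c-MYC and 42.4, 52.5 and 42.8 FPKM in c-MYC/FOXO1AAA. Both tumor groups lay above all NL libraries, at 1.7-fold and 1.75-fold, but neither difference passed the 1.5-fold test (limma adjusted p = 0.0992 and 0.0502). The second passed it without NL 1 (adjusted p = 0.0315), without c-MYC/FOXO1AAA 1 (0.0399) or without c-MYC/FOXO1AAA 3 (0.0409). Slc3a1 (chr17:85028376-85064236), the heavy chain of the kidney and intestinal cystine carrier, had 11.0, 6.82, 11.4 and 9.08 FPKM in NL, 13.7, 18.7 and 13.3 FPKM in c-MYC and only 0.214, 0.265 and 0.763 FPKM in c-MYC/FOXO1AAA. It was 36.8-fold below c-MYC in the c-MYC/FOXO1AAA tumors (log2 fold change -5.2 ± 0.38, adjusted p = 2.79e-06) and 23.1-fold lower than in NL. The c-MYC/FOXO1AAA mean was 0.414 FPKM, and 0.24 FPKM without c-MYC/FOXO1AAA 3.

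Of the 6 light chains in the table, 5 were tested and all 5 were called higher in c-MYC than in NL (24.5% of all tested genes were). The filter bears on this count. Slc7a6 (at most 0.628 FPKM in NL) and Slc7a9 (at most 0.274 FPKM in NL) reached 1 FPKM only in tumor libraries, and Slc7a11 was left out as low. Slc7a5 (chr8:121881150-121907694), also called LAT1, exchanges leucine and other large neutral amino acids for glutamine. It had 4.38, 1.9, 2.15 and 1.52 FPKM in NL, 28.6, 46.6 and 40.0 FPKM in c-MYC and 49.2, 62.1 and 40.1 FPKM in c-MYC/FOXO1AAA, a 15.4-fold rise in c-MYC (log2 fold change 4.02 ± 0.33, limma adjusted p = 4.6e-06). Slc7a6 and Slc7a7 exchange cationic for neutral amino acids with the same heavy chain. Slc7a6 had 0.628, 0.198, 0.191 and 0.178 FPKM in NL, 8.4, 10.5 and 10.6 FPKM in c-MYC and 17, 16.5 and 12.6 FPKM in c-MYC/FOXO1AAA, and rose 32.9-fold in c-MYC (5.08 ± 0.36, adjusted p = 1.05e-06). Slc7a7 had 9.02, 8.02, 7.24 and 8.06 FPKM in NL, 33.4, 38.7 and 31.5 FPKM in c-MYC and 46, 39.5 and 35.2 FPKM in c-MYC/FOXO1AAA, a 4.27-fold rise (2.07 ± 0.12, adjusted p = 1.08e-06). These 3 light chains were not called between the tumor groups, and the NL mean of Slc7a6 was 0.299 FPKM with NL 1 and 0.189 FPKM without it.

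Slc7a8 and Slc7a9 were high in c-MYC alone. Slc7a8, also called LAT2, exchanges neutral amino acids and pairs with Slc3a2. It had 2.17, 0.805, 0.928 and 1.45 FPKM in NL, 9.94, 14.2 and 9.38 FPKM in c-MYC and 0.845, 1.44 and 1.51 FPKM in c-MYC/FOXO1AAA. It was 8.34-fold higher in c-MYC than in NL (log2 fold change 3.12 ± 0.35, limma adjusted p = 5.33e-05) and 8.82-fold below c-MYC in the c-MYC/FOXO1AAA tumors (-3.13 ± 0.37, adjusted p = 0.000158). Slc7a9, the light chain that pairs with Slc3a1 to carry cystine and dibasic amino acids, had 0.242, 0.0568, 0.274 and 0.119 FPKM in NL, 7.78, 9.23 and 6.0 FPKM in c-MYC and 0.0217, 0 and 0.682 FPKM in c-MYC/FOXO1AAA. It was 44.3-fold higher in c-MYC than in NL (5.13 ± 0.75, adjusted p = 0.000249), and its log2 fold change between the tumors was -5.58 ± 0.8 (adjusted p = 0.000374). The level in c-MYC/FOXO1AAA rested on 1 library, with a mean of 0.235 FPKM, and 0.0109 FPKM without c-MYC/FOXO1AAA 3. The log2 fold change between the tumors was -6.7 without that library and -4.92 without c-MYC/FOXO1AAA 2, and that against NL was -0.46, and -1.57 (adjusted p = 0.0493) without c-MYC/FOXO1AAA 3. Both subunits of the cystine carrier were thus detected together at 6.0 FPKM or more only in c-MYC.

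Slc7a11, the light chain that imports cystine for glutathione synthesis, was not tested because it stayed below the filter. It had no read in the 4 NL libraries, 3, 2 and 2 reads in c-MYC and 19, 24 and 18 reads in c-MYC/FOXO1AAA, or at most 0.0995 FPKM. The c-MYC and c-MYC/FOXO1AAA libraries did not overlap, and the ratio of reads per library size was 6.53 with a 95% exact interval of 2.99 to 16.9, which covers counting error only.

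**Figure D4:**
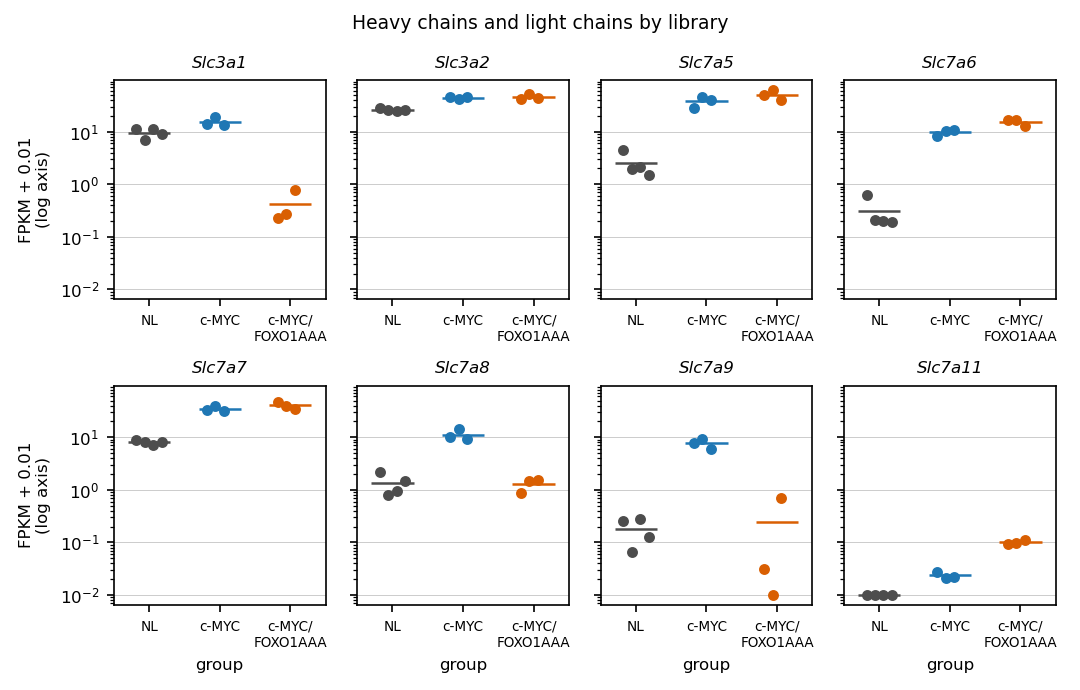
FPKM + 0.01 on a log axis for the heavy chains Slc3a1 and Slc3a2 and 6 light chains. Each point is a library, each line is the mean of a group (NL, n = 4; c-MYC and c-MYC/FOXO1AAA, n = 3), and points at 0.01 have no read. Slc7a5, Slc7a6 and Slc7a7 are high in both tumor groups, while Slc7a8 and Slc7a9 are high only in c-MYC and Slc3a1 is below 1 FPKM in c-MYC/FOXO1AAA.

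Cationic amino acid carriers, which take up arginine and lysine, moved in opposite directions. Slc7a2 (chr8:40862396-40922308), the liver form, had 71.0, 97.8, 75.5 and 81.4 FPKM in NL, 4.37, 9.86 and 6.97 FPKM in c-MYC and 1.18, 2.06 and 3.57 FPKM in c-MYC/FOXO1AAA, and fell 11.5-fold in c-MYC (log2 fold change -3.59 ± 0.35, limma adjusted p = 2.2e-05). The further 3.11-fold decrease in c-MYC/FOXO1AAA was called (-1.7 ± 0.38, adjusted p = 0.0284) but lost the call without c-MYC 2 (adjusted p = 0.108), c-MYC 3 (0.0643), c-MYC/FOXO1AAA 1 (0.104) or c-MYC/FOXO1AAA 2 (0.0632). It was also lost at equal FPKM totals (0.0557), with log2(FPKM + 1) (0.0592), with the 2 tumor groups fitted alone (0.0614) and at a 2-fold threshold (0.207). Slc7a1, the form of most proliferating cells, had 0.933, 0.0739, 0.514 and 0.497 FPKM in NL, 14.7, 22.9 and 18.6 FPKM in c-MYC and 16.0, 17.9 and 11.8 FPKM in c-MYC/FOXO1AAA. It rose 37.2-fold in c-MYC (5.56 ± 0.64, adjusted p = 4.41e-05), and the log2 fold change was 4.86 without NL 2. Slc7a3, another form, was called higher in both tumor groups, from 2 reads in the 4 NL libraries to 1.17 to 4.31 FPKM in the 6 tumors. Slc7a4, a relative with no clear transport activity, was not called in any contrast.

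Proton-coupled carriers of SLC36 moved in different ways. Slc36a2 (chr11:55158470-55185077), a glycine, alanine and proline carrier of kidney and muscle, had 5.59, 0.218, 1.48 and 1.38 FPKM in NL, 49.5, 42.9 and 37.8 FPKM in c-MYC and 0.719, 0.634 and 2.71 FPKM in c-MYC/FOXO1AAA. It was 20-fold higher in c-MYC than in NL (log2 fold change 5.0 ± 0.85, limma adjusted p = 0.000768) and 32.1-fold below c-MYC in the c-MYC/FOXO1AAA tumors (-5.26 ± 0.91, adjusted p = 0.00147). The NL mean was 2.17 FPKM, and 1.02 FPKM without NL 1. The c-MYC/FOXO1AAA mean was 1.35 FPKM, and 0.676 FPKM without c-MYC/FOXO1AAA 3. The first log2 fold change was 5.69 without NL 1 and 4.23 without NL 2, and the second was -5.9 without c-MYC/FOXO1AAA 3.

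Slc36a1, which lies 19273 bases from Slc36a2 on the opposite strand and exports amino acids from lysosomes, followed a different course. It had 30.1, 21.6, 25.0 and 25.7 FPKM in NL, 20.9, 23.9 and 16.3 FPKM in c-MYC and 4.91, 4.36 and 4.76 FPKM in c-MYC/FOXO1AAA, 4.36-fold below c-MYC (log2 fold change -2.09 ± 0.16, limma adjusted p = 1.38e-05), while NL and c-MYC overlapped. Slc36a4, a carrier of proline and tryptophan, was low only in c-MYC. It had 14.0, 13.3, 15 and 12.8 FPKM in NL, 1.08, 2.05 and 1.97 FPKM in c-MYC and 13.0, 10.8 and 8.53 FPKM in c-MYC/FOXO1AAA. It was 8.08-fold lower in c-MYC than in NL (-2.96 ± 0.21, adjusted p = 2.09e-06) and 6.33-fold above c-MYC in the c-MYC/FOXO1AAA tumors (2.6 ± 0.23, adjusted p = 2.34e-05), and NL and c-MYC/FOXO1AAA overlapped.

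In the SLC43 family, 2 of 3 members were called higher than c-MYC in the c-MYC/FOXO1AAA tumors (15.9% of all tested genes were). Slc43a2 (chr11:75531694-75577575), also called LAT4, lets large neutral amino acids cross by facilitated diffusion without exchange. It had 2.69, 2.29, 2.34 and 3.1 FPKM in NL, 3.62, 4.82 and 4.69 FPKM in c-MYC and 31.5, 29.8 and 30.3 FPKM in c-MYC/FOXO1AAA. The rise over c-MYC was 6.97-fold (log2 fold change 2.8 ± 0.16, limma adjusted p = 8.92e-07) and that over NL 11.7-fold, and the 3 groups did not overlap. Slc43a3, which carries purine nucleobases rather than amino acids, had 9.95, 12.7, 10.5 and 10.2 FPKM in NL, 2.02, 2.05 and 2.82 FPKM in c-MYC and 7.9, 6.57 and 6.36 FPKM in c-MYC/FOXO1AAA. It fell 4.71-fold in c-MYC (-2.23 ± 0.16, adjusted p = 3.71e-06) and was 3.02-fold above c-MYC in the c-MYC/FOXO1AAA tumors (1.59 ± 0.17, adjusted p = 0.000405). Slc43a1, also called LAT3, was not called and had 6.26 to 12 FPKM over all libraries.

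Among the SLC6 carriers of osmolytes and related compounds, the neighbors Slc6a12 and Slc6a13, 5343 bases apart on chromosome 6, were lower in each tumor group. Slc6a12 had 178, 159, 194 and 189 FPKM in NL, 12, 14.8 and 16.3 FPKM in c-MYC and 1.88, 2.05 and 4.16 FPKM in c-MYC/FOXO1AAA, and fell 12.5-fold in c-MYC (log2 fold change -3.64 ± 0.23, limma adjusted p = 7.11e-07) and a further 5.33-fold in c-MYC/FOXO1AAA (-2.43 ± 0.25, adjusted p = 9.06e-05). Slc6a13 had 144, 135, 121 and 139 FPKM in NL, 39.8, 48.9 and 58.8 FPKM in c-MYC and 2.91, 3.39 and 5.41 FPKM in c-MYC/FOXO1AAA. Its larger step was the second, 12.6-fold (-3.67 ± 0.21, adjusted p = 7.24e-07), after 2.74-fold in c-MYC (-1.47 ± 0.2, adjusted p = 0.0016), a call that was lost at equal FPKM totals (adjusted p = 0.732). Slc6a8 (chrX:73673150-73682502), the creatine carrier, had 15.7, 13.4, 13.7 and 9.75 FPKM in NL, 83.7, 97.3 and 112 FPKM in c-MYC and 59.3, 70.8 and 67.8 FPKM in c-MYC/FOXO1AAA, a 7.43-fold rise in c-MYC (2.88 ± 0.16, adjusted p = 3.08e-07). Slc6a6, the taurine carrier, was not called and had 15.4 to 31.0 FPKM over all libraries.

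Slc6a11, another GABA carrier, and Slc6a15, a neutral amino acid carrier of the nervous system, had no read in any NL or c-MYC library. In c-MYC/FOXO1AAA, Slc6a11 had 76, 246 and 114 reads (0.747, 1.99 and 1.41 FPKM) and Slc6a15 had 52, 87 and 24 reads (0.596, 0.822 and 0.345 FPKM). Set against 3 reads per library, their levels were at least 34.9-fold and at least 12.7-fold higher than in c-MYC. Neither passed the filter on low values, so neither was tested, and both are singled out here after their values were seen.

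The amino acid carriers of SLC6 were led by Slc6a9. Slc6a9, the glycine carrier also called GLYT1, had 36.1, 41.4, 29.4 and 39.3 FPKM in NL, 10.5, 13.5 and 11.3 FPKM in c-MYC and 25.5, 31.4 and 13.6 FPKM in c-MYC/FOXO1AAA on a length 7.63 times shorter than its longest coding transcript. It fell 3.1-fold in c-MYC (log2 fold change -1.61 ± 0.24, limma adjusted p = 0.00252), a call that was lost at equal FPKM totals (adjusted p = 0.473). Between the tumors it was not called (0.91 ± 0.26, adjusted p = 0.325), and it was called without c-MYC/FOXO1AAA 3 (1.25, adjusted p = 0.00736). Slc6a19, the main neutral amino acid carrier of the kidney and gut brush border, was called higher in c-MYC (2.6 to 4.67 FPKM) than in NL (1 read in 4 libraries) and 10.7-fold below c-MYC in the c-MYC/FOXO1AAA tumors, where its mean was 0.369 FPKM, and 0.134 FPKM without c-MYC/FOXO1AAA 3. The orphan carrier Slc6a16 was called lower in both tumor groups than in NL, at 0.664 to 1.32 FPKM in NL and at most 0.0567 FPKM in the tumors. The serotonin carrier Slc6a4, the proline carriers Slc6a7, Slc6a20a and Slc6a20b and the SLC38 gene Slc38a8 were below the filter, and of these only Slc38a8 exceeded 1 FPKM in a library (3.21 FPKM in c-MYC 3).

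**Figure D5:**
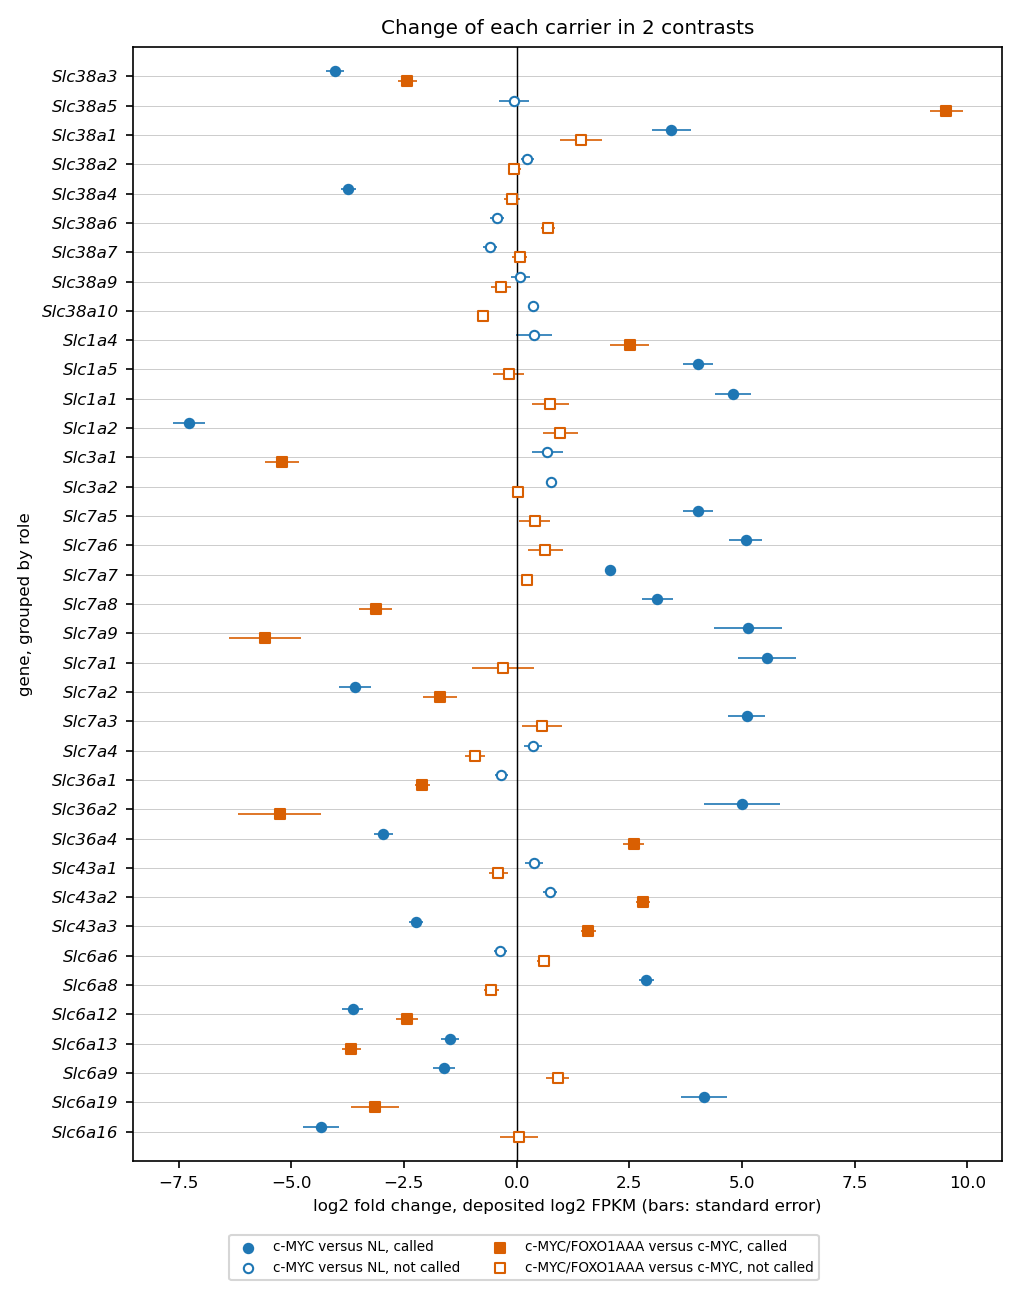
Log2 fold change of the 37 tested carriers in c-MYC against NL (circles) and in c-MYC/FOXO1AAA against c-MYC (squares), on the deposited log2 FPKM. Filled symbols were called by limma's treat test, open symbols were not, and bars are standard errors. The 2 contrasts share the c-MYC libraries. Slc38a5 lies farthest to the right at 9.53 in c-MYC/FOXO1AAA against c-MYC, and Slc1a2 farthest to the left at -7.27 in c-MYC against NL.

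Read by the order of the calls, some members were higher in c-MYC than in NL and not called between the tumors (Slc1a1, Slc1a5, Slc6a8, Slc7a1, Slc7a3, Slc7a5, Slc7a6, Slc7a7 and Slc38a1). Others were higher in c-MYC than in NL and below c-MYC in the c-MYC/FOXO1AAA tumors (Slc6a19, Slc7a8, Slc7a9 and Slc36a2). Slc36a4 and Slc43a3 were lower and then higher, and Slc6a12, Slc6a13, Slc7a2 and Slc38a3 were lower in both contrasts. Slc1a4, Slc38a5 and Slc43a2 were called higher, and Slc3a1 and Slc36a1 lower, in c-MYC/FOXO1AAA against both other groups and not in c-MYC against NL. These contrasts share the c-MYC libraries, so the orders are a description. The share of all genes with each order was not counted.

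Related genes were read from lists of amino acid handling. Of all tested genes, 24.5% were called higher and 23.6% lower in c-MYC against NL, and 15.9% higher and 12.7% lower in c-MYC/FOXO1AAA against c-MYC. Of 14 tested carriers outside these families, which serve mitochondria, lysosomes and peptides, 0 were called higher and 5 lower by limma in c-MYC against NL, and 0 higher and 5 lower in c-MYC/FOXO1AAA against c-MYC. The mitochondrial ornithine carrier Slc25a15 fell from 113 ± 1.78 FPKM in NL to 41.1 ± 7.42 in c-MYC and 8.23 ± 1.49 in c-MYC/FOXO1AAA. The mitochondrial aspartate and glutamate carrier Slc25a13 fell from 112 ± 6.4 FPKM to 54.2 ± 5.86 and 10.3 ± 3.41.

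Of the 15 genes of the amino acid response, 2 were called higher and 3 lower in c-MYC against NL (24.5% and 23.6% of all tested genes), and 6 higher and 1 lower in c-MYC/FOXO1AAA against c-MYC (15.9% and 12.7%). Atf4, the transcription factor of this response, was not called, with 71.6 ± 2.56 FPKM in NL, 60.4 ± 11.6 in c-MYC and 97.2 ± 1.03 in c-MYC/FOXO1AAA. Asns, asparagine synthetase, had 9.07, 0.789, 4.62 and 2.32 FPKM in NL, 104, 125 and 121 FPKM in c-MYC and 46.8, 50 and 46.3 FPKM in c-MYC/FOXO1AAA, and was called higher in both tumor groups than in NL (log2 fold change 5.26 ± 0.62 and 3.97 ± 0.62, limma adjusted p = 5.25e-05 and 0.000371). Nupr1, a stress-induced chromatin protein, rose from 0.457 ± 0.117 FPKM in c-MYC to 23.8 ± 2.31 in c-MYC/FOXO1AAA (5.33 ± 0.2, adjusted p = 3.4e-08).

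Of the 17 tested genes of lysosomal amino acid sensing, 2 were called higher and 3 lower in c-MYC against NL (24.5% and 23.6% of all tested genes), and 3 higher and 2 lower in c-MYC/FOXO1AAA against c-MYC (15.9% and 12.7%). The 3 that were higher between the tumors were the Rag GTPases Rragb and Rragd and the arginine-sensor gene relative Castor2. Rragb had 0, 0.047, 0 and 0 FPKM in NL, 0.0965, 0.776 and 0.145 FPKM in c-MYC and 5.5, 6.24 and 5.67 FPKM in c-MYC/FOXO1AAA (log2 fold change between the tumors 4.34 ± 0.57, limma adjusted p = 0.000213).

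Of the 12 tested genes of glutamine and glutathione metabolism, 2 were called higher and 8 lower in c-MYC against NL (24.5% and 23.6% of all tested genes), and 1 higher and 7 lower in c-MYC/FOXO1AAA against c-MYC (15.9% and 12.7%). The liver-type glutaminase Gls2 went from 167 ± 23.4 FPKM in NL to 39.3 ± 7.3 in c-MYC and 14.4 ± 1.64 in c-MYC/FOXO1AAA, and Glul, glutamine synthetase, from 267 ± 22.6 FPKM to 47.5 ± 4.4 and 34.8 ± 3.37 (limma adjusted p = 4.98e-06 and 5.87e-08 in c-MYC against NL). Ggt1, the surface enzyme that opens glutathione for uptake of its amino acids, had 12.1, 1.19, 6.03 and 2.97 FPKM in NL, 120, 136 and 130 FPKM in c-MYC and 0.891, 0.501 and 8.05 FPKM in c-MYC/FOXO1AAA. NL 1 and c-MYC/FOXO1AAA 3 were again the highest of their groups. The log2 fold change of Ggt1 was 4.98 ± 0.91 in c-MYC against NL (adjusted p = 0.00127) and -6.31 ± 0.98 between the tumors (adjusted p = 0.000621).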

How the data were processed

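RNA-Seq of mouse liver (NL, n = 4; c-MYC, n = 3; c-MYC/FOXO1AAA, n = 3) was analyzed from the deposited table of log2 FPKM, which the authors made from reads counted by Ensembl gene and analyzed in R with edgeR. GRCm38 and FastQC 0.11.7 are named in the submitters' processing notes. The aligner and counter are not given in the sources used here. Samples were grouped by title. The members and gene lists were chosen with earlier results of these data known.

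Before taking log2, the authors had added a prior count (2 reads on average, in proportion to library size). Every gene with no read therefore sits at a floor, from which gene length and whole reads were solved (tolerance 0.001) for 99.9% of 16697 genes. The 372 entries without a symbol were left out. Of 16623 genes matched to GENCODE M21, 97.7% had the length of an annotated transcript. Depth was 13.12 to 20.55 M reads. Scaling factors of the libraries were 0.649 to 0.684 in NL, 1.256 to 1.295 in c-MYC and 1.454 to 1.502 in c-MYC/FOXO1AAA.

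Genes with at least 1 FPKM in at least 3 libraries were tested on the deposited log2 values with limma 3.58.1 in R 4.3.3. All 10 libraries were fitted together, and treat (trend and robust) tested 2-sided against a 1.5-fold change with Benjamini-Hochberg adjustment. Log2 fold changes include the prior count, which understates those of low genes. Fold values are ratios of mean FPKM without it. The count model of the study was not run, since the deposited unit is log2 FPKM. Scripts were tested on simulated data.

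Values per library are given for called members with a group mean of at least 5 FPKM, the heavy chains, their light chains, Slc38a9 and Slc36a1. Of related lists, at most 6 called genes each are named, by size of change, besides Atf4, Asns, Gls2 and Glul. Some genes of these lists are not reported here. Markers of cell types are named as lists. Gene positions are from GENCODE M21 (GRCm38), and promoters from RefSeq (GRCm38.p6). Alternatives were 2 pseudocounts (0.1 and 1), 2 filters, 3 scalings, 2 thresholds, other variance and sample choices, a replicate block, each library left out and, added after the values were seen, the coding length and group means without 1 library.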

Additional observations from a re-analysis of the deposited data

Results flagged for a closer look

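NL was the only group large enough for the check of single libraries. The check was run on the log2 values of 26 of the 27 members followed gene by gene under the alternatives. These 26 had more than 3 reads in at least 1 NL library, and 2 of them had a library far from the other 3. Slc1a4 had 0.496 FPKM in NL 3 and 1.32 to 1.54 FPKM in the others. Slc7a6 had 0.628 FPKM in NL 1 and 0.178 to 0.198 FPKM in the others. Chance alone flags about 1 in 20 such groups. Neither value touches a call, since Slc7a6 was called higher in both tumor groups with and without NL 1, and Slc1a4 was called higher in c-MYC/FOXO1AAA with and without NL 3.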

How the results depend on the processing

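Over 80 log2 fold changes of 27 named members, each with up to 22 alternatives, 1687 values kept their direction and their side of the threshold, 11 lost and 22 gained a call, and 25 changed sign, 0 of them among called changes. The number of members called higher in c-MYC against NL was 13, and became 8 with a mean of at least 5 FPKM, where fewer genes were tested, and 21 at equal FPKM totals. That in c-MYC/FOXO1AAA against c-MYC was 5, and became 8 without a filter and 9 without a fold threshold. In c-MYC/FOXO1AAA against NL, 12 higher became 19 at equal FPKM totals, and 9 lower became 14 without a fold threshold. Leaving out 1 library at a time gave 13 to 14 higher and 10 to 10 lower in c-MYC against NL, 5 to 6 and 9 to 10 in c-MYC/FOXO1AAA against c-MYC, and 12 to 13 and 9 to 10 in c-MYC/FOXO1AAA against NL. Over all genes, equal totals moved c-MYC against NL from 3435 higher and 3305 lower to 7073 and 1893, and c-MYC/FOXO1AAA against NL from 4371 and 3728 to 8139 and 2098. Without a fold threshold c-MYC against NL gave 5487 higher, and c-MYC/FOXO1AAA against c-MYC gave 3984 higher and 3704 lower in place of 2229 and 1787. With a 2-fold threshold these were 2192 higher and, for the latter, 1102 lower, and a mean of at least 5 FPKM gave 984 higher in c-MYC/FOXO1AAA against c-MYC and 2489 higher in c-MYC/FOXO1AAA against NL.

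Sign changes occurred only in log2 fold changes that were not called. At equal totals they were Slc6a9 0.4, Slc7a8 1.09, Slc7a9 0.64, Slc36a2 0.85, Slc36a4 0.74, Slc38a9 0.83 and Slc43a3 0.46 in c-MYC/FOXO1AAA against NL, Slc36a1 0.59 in c-MYC against NL and Slc38a4 0.07 in c-MYC/FOXO1AAA against c-MYC. In that last contrast quantile normalization gave Slc1a2 -0.24, Slc1a5 0.08 and Slc38a4 0.12, and equal medians gave Slc3a2 -0.05. With log2(FPKM + 1), Slc7a9 was 0.03 against NL. Without 1 library, Slc3a2 ranged from -0.07 to 0.09 and Slc38a4 from -0.25 to 0.14 in c-MYC/FOXO1AAA against c-MYC, and Slc7a8 from -0.22 to 0.25, Slc7a9 from -1.57 to 0.21 and Slc36a2 from -1.03 to 0.44 in c-MYC/FOXO1AAA against NL. The causes were not tested. Samples with the same number did not deviate together (r from -0.04 to 0.027 over 9 pairs, against -0.072 to 0.07 over 24 other pairs). With the replicate number as a block, the calls stayed at 13 higher and 10 lower, 5 and 10, and 12 and 9, and Slc7a8 in c-MYC/FOXO1AAA against NL moved to 0.06. The coding length, chosen after the data were seen, moved the summed carrier level from 2926 to 1989 FPKM in NL, from 855 to 568 in c-MYC and from 709 to 457 in c-MYC/FOXO1AAA.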
